A study of Homo sapiens with 31 samples.

Results

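The genes described here copy the genome and make its building blocks: MCM2, MCM4, MCM5, MCM6 and MCM7 of the replicative helicase, PCNA, the sliding clamp, and RRM1, RRM2 and TYMS, which supply deoxynucleotides. Each gene was followed through 1 Ensembl transcript, kept when the length listed beside its counts lay within 5 of the length of its protein in residues minus 9. The transcripts are ENST00000265056 (MCM2), ENST00000262105 (MCM4), ENST00000216122 (MCM5), ENST00000264156 (MCM6), ENST00000303887 (MCM7), ENST00000379143 (PCNA), ENST00000300738 (RRM1), ENST00000304567 (RRM2) and ENST00000323274 (TYMS). All 9 met that rule with a difference of 0. They are 9 of 227264 transcripts listed, and 9 of 35499 after the list was reduced to 1 transcript per locus. Other genes of the pathway were not analysed here, because no table used here pairs transcript identifiers with gene names.

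The study asked how the RNA helicase eIF4A1 takes part in the translational repression that LARP1 exerts when mTORC1 is inhibited. It used the line HEK293 T-REx, derived from human embryonic kidney and carrying a repressor for inducible transgenes, in 31 libraries of 3 kinds. Ribosome profiling, which sequences the RNA fragments that ribosomes protect from a nuclease (footprints), covered cells labelled Naive, EIF4A1 KO and EIF4A2 KO. Each of these genotypes had 2 libraries with the solvent DMSO, 1 with 1 µM PP242 and 1 with 10 µM PP242, an inhibitor of the mTOR kinase, given for 30 min. RNA-seq had 2 libraries of naive and 2 of EIF4A1 KO cells, with no treatment named. RNA pulldown, in which a factor carrying the streptavidin-binding peptide SBP is captured on beads together with its RNA, covered cells of genotype SBP-eIF4A1 and SBP-eIF4A2 with 2 input and 2 pulldown libraries each. SBP-eIF4A1 cells were also taken after 72 h of control siRNA (siControl, 2 inputs and 2 pulldowns) and of LARP1 siRNA (siLARP1, 2 inputs and 1 pulldown). The labels do not say how the knockouts were made, whether each is 1 clone, or whether the tagged proteins replaced the cells' own, and a capture from cells without a tagged protein was not analysed here. Levels of EIF4A1, EIF4A2, LARP1 and of marker genes of the line were not analysed here either, so genotype and knockdown rest on the labels. The sample numbering sets the RNA-seq, EIF4A2 KO and SBP-eIF4A2 libraries apart from the others, and the labels name no batch. Where EIF4A2 KO is compared with the other genotypes, genotype and occasion therefore cannot be told apart. The same holds for SBP-eIF4A2 against SBP-eIF4A1 and for footprints against mRNA. Nothing in the labels says that replicates came from separate cultures, so the p-values measure only the spread between these libraries, which may be technical.

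Before a cell copies its DNA, rings of MCM proteins are loaded onto origins and later unwind the helix ahead of the fork. PCNA encircles the DNA behind it and holds the polymerases in place. Ribonucleotide reductase, built from the large subunit RRM1 and the small subunit RRM2, makes deoxynucleotides from ribonucleotides, and TYMS, thymidylate synthase, makes the thymidine nucleotide. Transcription of such genes is driven largely by E2F factors as cells enter S phase. eIF4A1 and its paralog eIF4A2 unwind mRNA as part of the cap-binding complex eIF4F. LARP1 is known to bind mRNAs whose cap is followed by a C and a run of pyrimidines (TOP mRNAs) and to repress them when mTORC1 is off.

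The first 20 bases of the annotated transcripts are given because that TOP feature is read there. The RefSeq table used (GRCh38.p14) held 7 of the 9 genes with 11 annotated starts, and MCM4 and MCM5 are named only. The first annotated start of each of the 7 matched genes is printed, with a C followed by at least 4 pyrimidines in capitals where present.
RRM1, chr11:4094685-4094704, plus strand: CTTCTgggtcttgcccagac
MCM2, chr3:127598411-127598430, plus strand: CTTTTCgcgcgaaacctggt
MCM6, chr2:135876424-135876443, minus strand: gcaaagctgcagcgtctgga
MCM7, chr7:100101378-100101397, minus strand: aatttcggttggccggccac
PCNA, chr20:5126603-5126622, minus strand: ggatggccggagctggcgcc
RRM2, chr2:10122568-10122587, plus strand: aaaatcgcgcgcggccccgc
TYMS, chr18:657653-657672, plus strand: acttggcctgcctccgtccc
RRM1 and MCM2 began with such a run, of 5 and 6 pyrimidines counting the C, and the other 5 matched genes had none at any of their starts. Of all 35116 starts in the table, 4.07% began with a C and at least 4 pyrimidines. A match in an annotated start is a description of these letters and not a measured transcription start.

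The promoter windows, from 250 bases before to 50 bases after each annotated start, were searched on both strands for the E2F words TTTCCCGC, TTTGGCGC, TTTCGCGC and TTTGCCGC. One or more of them stood in the windows of 5 of the 7 matched genes (MCM2, MCM6, MCM7, PCNA and TYMS). By window, that was 5 of the 11 windows of the matched genes, beside 3.31% of all windows in the table. The windows of RRM1 and RRM2 did not hold these letters. The 30 bases around the word (capitals) are given for PCNA and TYMS, the members whose mRNA rose in EIF4A1 KO cells, and, with both of its words, for MCM7, whose mRNA was not called.
PCNA, chr20:5126663-5126692, minus strand: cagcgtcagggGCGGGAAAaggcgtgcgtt
TYMS, chr18:657603-657632, plus strand: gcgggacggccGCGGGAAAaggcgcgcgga
MCM7, chr7:100101566-100101595, minus strand: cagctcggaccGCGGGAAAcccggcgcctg
MCM7, chr7:100101388-100101417, minus strand: ggggggcgacgTTTCGCGCcaatttcggtt
PCNA, TYMS and MCM7 hold the same 8 letters, TTTCCCGC read on the other strand, which begin at -59, -39 and -187 bases relative to the start. MCM2 and MCM6, whose mRNAs were not called with all libraries, hold other words of the list. Whether any of these words bears on the mRNA levels was not tested. In MCM2 the word TTTCGCGC and its reverse complement overlap each other, and the first of them overlaps the pyrimidine run at the start. In MCM6 2 pairs of overlapping words lie upstream of the start.

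RefSeq (GRCh38.p14) places MCM2 at chr3:127598411-127622436, MCM4 at chr8:47960941-47978160, MCM5 at chr22:35400140-35455031, MCM6 at chr2:135839626-135876443 and MCM7 at chr7:100092728-100101397. PCNA lies at chr20:5114953-5126622, RRM1 at chr11:4094685-4138932, RRM2 at chr2:10122568-10211010 and TYMS at chr18:657653-673578. The MCM7 locus overlaps MIR25, MIR93, MIR106B and AP4M1, the PCNA locus overlaps PCNA-AS1 and LOC124900464, and the TYMS locus overlaps TYMSOS and ENOSF1. The RRM2 locus overlaps MIR4261, LOC124906144 and LOC105373424, and the MCM2 locus overlaps LOC107986126. Whether strand was used in counting is not given in the sources used here, so reads of such overlapping genes cannot be told apart. By symbol, PCNA has 4 annotated pseudogenes, RRM2 has 3 and TYMS has 2, and reads shared with these copies make the levels of those 3 genes less certain.

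Over the 35499 transcripts, libraries held 2515010 to 6420273 counts in ribosome profiling, 19706845 to 21631492 in RNA-seq and 11890141 to 17642724 in the pulldown assay. The 9 genes together took 0.407% to 0.537% of counts in profiling, 0.301% to 0.326% in RNA-seq and 0.109% to 0.293% in the pulldown assay. No gene had fewer than 579 counts in any library, where counting error alone is 4.16%, and all 9 passed the filter on low counts in every comparison. Replicates differed by more than sampling noise in each group (chi-square per degree of freedom 1.32 to 2.20 in most), and the siControl input, siControl pulldown, siLARP1 input and SBP-eIF4A2 pulldown stood apart with 7.13, 13.1, 14.9 and 6.87. All levels are library-size-normalised read counts (CPM, cpm of edgeR) after TMM scaling, which sets the bulk of transcripts equal between libraries, and adjusted p-values are from edgeR's quasi-likelihood test with Benjamini-Hochberg adjustment over all transcripts tested, called under 0.05.

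In naive cells the order of the 9 genes differed between mRNA and footprints. Per 100 codons of counted coding length, PCNA had the highest mRNA level, 178 ± 4.20 CPM (SD, n = 2), followed by MCM7 at 145 ± 3.97 and MCM4 at 54.8 ± 1.38. MCM2, RRM1, RRM2 and MCM5 came next with means of 36.8, 35.9, 33.1 and 31.3 CPM per 100 codons. Each of these 4 overlapped its neighbour in that order, so their ranks are not separated by the replicates. MCM6 (19.1 ± 1.28) and TYMS (11.8 ± 0.867) were lowest and overlapped no neighbour.

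In footprints of the same cells with DMSO, PCNA again led with 327 ± 7.13 CPM per 100 codons (SD, n = 2). MCM7 (112.5 ± 2.65), TYMS (104 ± 2.13), RRM2 (98.3 ± 2.0) and MCM4 (90.8 ± 2.61) followed without overlap between neighbours. TYMS thus moved from last place by mRNA to the third by footprints. RRM1 (56.4 ± 1.31) and MCM6 (41.9 ± 0.418) lay lower, and MCM2 (35.1 ± 3.13) and MCM5 (32.5 ± 2.72), the lowest, overlapped each other. Across all 12 profiling libraries PCNA ranked 1, MCM7 and TYMS held ranks 2 and 3, MCM4 and RRM2 held 4 and 5, and RRM1, MCM6, MCM2 and MCM5 held 6, 7, 8 and 9.

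**Figure D1:**
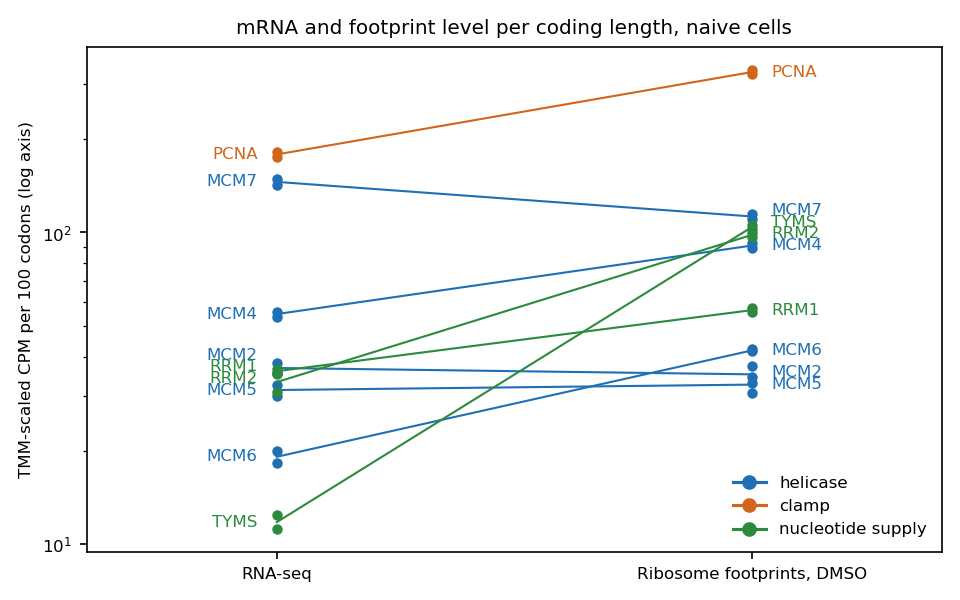
Level of each gene per 100 codons (TMM-scaled CPM, log axis) in naive cells by RNA-seq and by footprints with DMSO. Points are the 2 libraries of each assay, lines join their means, and colours give the role. TYMS climbs from 11.8 to 104 CPM per 100 codons. The 5 MCM genes span a narrower range in footprints than in mRNA, which rests largely on MCM7.

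The 5 helicase genes encode subunits that sit in 1 complex. Taken with MCM7, their footprints lay closer together than their mRNAs. The highest MCM gene exceeded the lowest by 7.41 to 7.92 times per coding length in the 4 RNA-seq libraries and by 2.88 to 3.62 times in the 12 profiling libraries, so the ranges of the assays did not overlap. This rested largely on MCM7, the highest. Without MCM7, naive means per 100 codons ran from 19.1 (MCM6) to 54.8 CPM (MCM4) in mRNA. In naive footprints with DMSO they ran from 32.5 (MCM5) to 90.8 CPM (MCM4). In EIF4A1 KO cells they ran from 18.2 (MCM6) to 50.9 CPM (MCM4) in mRNA. The EIF4A1 KO footprints with DMSO ran from 34.1 (MCM5) to 104.7 CPM (MCM4). The coefficient of variation over the 5 genes was 87.4% to 89.9% in RNA-seq and 49.0% to 59.7% in profiling. For the subunits of ribonucleotide reductase, the ratio of RRM2 to RRM1 per coding length was 0.873 to 0.995 in RNA-seq and 1.26 to 1.75 in profiling. These are descriptions of levels within a library and carry no test.

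Footprints relative to mRNA, tested as the difference of the assays in naive cells after scaling, were called higher for 6 of the 9 genes and lower for 1, beside 63.5% of all 25458 transcripts called in either direction. TYMS stood highest with a log2 difference of 3.15 (SE 0.06, adjusted p = 5.83e-67), which only 393 of the 25458 transcripts exceeded. RRM2, the subunit of ribonucleotide reductase that is made and destroyed with the cell cycle, had 1.58 (SE 0.05) and RRM1 had 0.66 (SE 0.05). Among the helicase genes MCM6 had 1.14 (SE 0.05) and MCM4 0.74 (SE 0.04), while MCM7 was lower at -0.36 (SE 0.04). MCM5 (0.07, 95% interval -0.04 to 0.17) and MCM2 (-0.06, -0.16 to 0.04) were not called, and PCNA had 0.89 (SE 0.04). The median over the 9 genes was 0.74 and that over all transcripts -0.09. Scaling to the library total alone moved the median of all transcripts to -0.19, and MCM2 was then called lower at -0.16. MCM5 was called higher without naive footprint replicate 1 (0.18).

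In EIF4A1 KO cells the mRNAs of TYMS and PCNA rose. TYMS mRNA was 34.0 and 37.7 CPM in the naive libraries and 62.8 and 59.15 CPM in the EIF4A1 KO libraries. PCNA mRNA was 441 and 456 CPM in naive and 598 and 614 CPM in EIF4A1 KO libraries. For both genes the groups did not overlap. The same held for MCM4, MCM5 and RRM1, of which MCM4 was called. For RRM1 the nearest libraries were naive at 286.7 CPM and EIF4A1 KO at 286.8 CPM. The share of all transcripts with groups that did not overlap is not given here, so separation alone is not read as a change. TYMS rose by 0.77 on the log2 scale (SE 0.06, 1.70-fold, adjusted p = 1.48e-11) and PCNA rose by 0.44 (SE 0.03, 1.35-fold, adjusted p = 1.00e-12).

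Among the helicase genes only MCM4 mRNA was called by edgeR with all libraries. MCM4, 459 and 476 CPM in naive and 428 and 442 CPM in EIF4A1 KO libraries, fell by 0.10 on the log2 scale (SE 0.03, adjusted p = 0.0125). Its call was lost with DESeq2 (adjusted p = 0.057), without EIF4A1 KO replicate 1 (-0.08, adjusted p = 0.237) and without naive replicate 2 (-0.08, adjusted p = 0.082). MCM2, MCM5, MCM6 and MCM7 were not called, with log2 differences from -0.07 to 0.09. Without naive replicate 1, MCM2 (-0.11) and MCM6 (-0.13) were called lower, and without naive replicate 2, MCM5 (0.15) and RRM2 (0.22) were called higher. RRM1 (0.03, 95% interval -0.04 to 0.10) and RRM2 (0.11, 0.01 to 0.21) were not called with all libraries. In all, 3 of the 9 genes were called in either direction, beside 36.5% of all transcripts, and the median was 0.03 against -0.0025 over all transcripts. Transcription of such genes is driven largely as cells enter S phase, and the share of cells at that stage was not analysed here. A change in that share and a change in RNA per cell cannot be told apart in bulk libraries.

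Footprints with DMSO rose in EIF4A1 KO cells for 5 of the 9 genes, beside 10.9% of all 19844 transcripts called higher. PCNA, the clamp, had 836 and 811 CPM in naive and 1002 and 1061 CPM in EIF4A1 KO libraries, and rose by 0.32 on the log2 scale (SE 0.05, adjusted p = 6.97e-07). TYMS had 312 and 321 CPM in naive and 477.5 and 445 CPM in EIF4A1 KO libraries, and rose by 0.54 (SE 0.06, adjusted p = 1.96e-12). RRM1, the large reductase subunit, had 434 and 449 CPM against 550.1 and 549 CPM and rose by 0.32 (SE 0.06, adjusted p = 1.09e-05). In these 3 genes every knockout library lay above both naive libraries.

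Among the helicase genes MCM6 rose by 0.23 (SE 0.06, adjusted p = 0.00447), from 342 and 338 CPM to 412 and 382 CPM, and MCM4 by 0.21 (SE 0.05, adjusted p = 0.00237), from 760 and 791 CPM to 888 and 901 CPM. The groups did not overlap for either gene, but MCM6 lost its call without EIF4A1 KO replicate 1 (0.17, adjusted p = 0.184). MCM2, MCM5, MCM7 and RRM2 were not called, with log2 differences of 0.09, 0.07, 0.01 and 0.05. The RRM2 groups did not overlap either, and the share of all transcripts so separated is not given here. Over the 9 genes the median was 0.21, against -0.01 over all transcripts.

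Where footprints were set against mRNA in 1 model, the change beyond the mRNA was higher in EIF4A1 KO for MCM4, MCM6 and RRM1, 3 of the 9 genes beside 3.75% of all transcripts. The log2 differences were 0.30 for MCM4 (SE 0.06, adjusted p = 0.000228), 0.28 for MCM6 (SE 0.08, adjusted p = 0.00651) and 0.27 for RRM1 (SE 0.07, adjusted p = 0.00258). For PCNA (-0.12, 95% interval -0.24 to -0.00114) and TYMS (-0.24, -0.41 to -0.07, adjusted p = 0.0653) the footprints did not differ from the mRNA change by more than the test allowed. The TYMS difference was called without EIF4A1 KO footprint replicate 1 (-0.34), naive footprint replicate 1 (-0.31) or naive RNA replicate 2 (-0.31). PCNA was called without EIF4A1 KO footprint replicate 2 (-0.21) or naive footprint replicate 2 (-0.19). Calls were lost for MCM6 without EIF4A1 KO footprint replicate 1 (0.17), naive footprint replicate 2 (0.23) or naive RNA replicate 2 (0.22), and for RRM1 without EIF4A1 KO footprint replicate 1 (0.22) or naive footprint replicate 1 (0.20). The RNA-seq libraries carry no DMSO label, so the solvent differs between the assays as labelled.

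**Figure D2:**
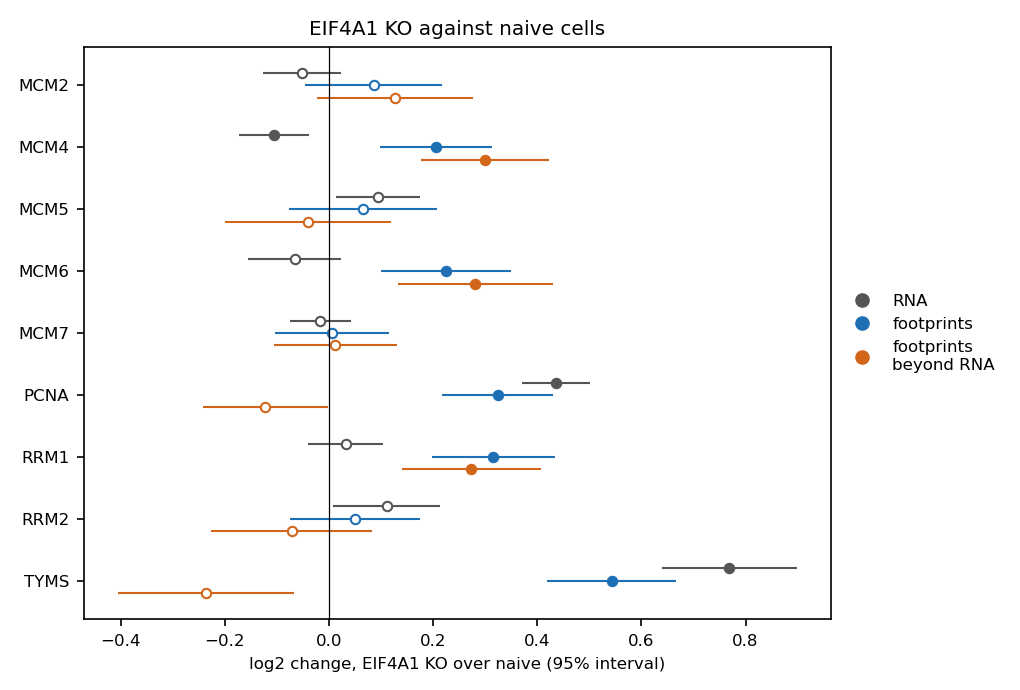
Log2 change in EIF4A1 KO over naive cells for mRNA (grey), DMSO footprints (blue) and footprints beyond mRNA (orange), with 95% intervals from edgeR. Filled points passed an adjusted p of 0.05. TYMS and PCNA lie to the right in both mRNA and footprints, while MCM4, MCM6 and RRM1 lie to the right in footprints and in footprints beyond mRNA.

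In EIF4A2 KO cells, compared with the same naive libraries, 4 of the 9 genes were called, 2 in each direction, beside 8.04% of all transcripts called in either direction. TYMS, at 419 and 434 CPM, rose by 0.43 on the log2 scale (SE 0.06, adjusted p = 8.12e-09). PCNA, at 688 and 668 CPM, fell by 0.28 (SE 0.05, adjusted p = 4.12e-05), and RRM2, at 318 and 318 CPM against 368 and 379 CPM in naive cells, fell by 0.23 (SE 0.06, adjusted p = 0.0049). All 3 genes had groups that did not overlap, and the same held for MCM2, MCM4, MCM6 and RRM1, of which MCM6 was called. Genes not called were thus separated as well, and the share of all transcripts so separated is not given here.

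MCM6, at 382 and 400 CPM, rose by 0.20 (SE 0.06, adjusted p = 0.0188), the 1 helicase gene called. That call was lost with DESeq2 (adjusted p = 0.0848), without EIF4A2 KO replicate 2 (0.16), naive replicate 1 (0.21) or naive replicate 2 (0.19). RRM2 lost its call without naive replicate 2 (-0.21, adjusted p = 0.0751), and MCM2 (0.17, adjusted p = 0.0797) gained one without it (0.26). MCM4, MCM5, MCM7 and RRM1 were not called, with log2 differences of 0.12, 0.10, 0.01 and 0.06. The median over the 9 genes was 0.10 against 0.000635 over all transcripts. mRNA of EIF4A2 KO cells was not analysed here.

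The knockouts were also compared directly, since each was set against the same naive libraries. Footprints of EIF4A1 KO cells exceeded those of EIF4A2 KO cells for 3 of the 9 genes, beside 11% of all transcripts. PCNA was higher by 0.60 on the log2 scale (SE 0.05, 1.52-fold, adjusted p = 5.47e-18), RRM2 by 0.28 (SE 0.06, adjusted p = 0.000298) and RRM1 by 0.25 (SE 0.06, adjusted p = 0.000556). For TYMS the difference was 0.11 (95% interval -0.01 to 0.24), so the test did not separate its level in the knockouts. The 5 helicase genes, not called, had differences from -0.08 to 0.08.

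**Figure D3:**
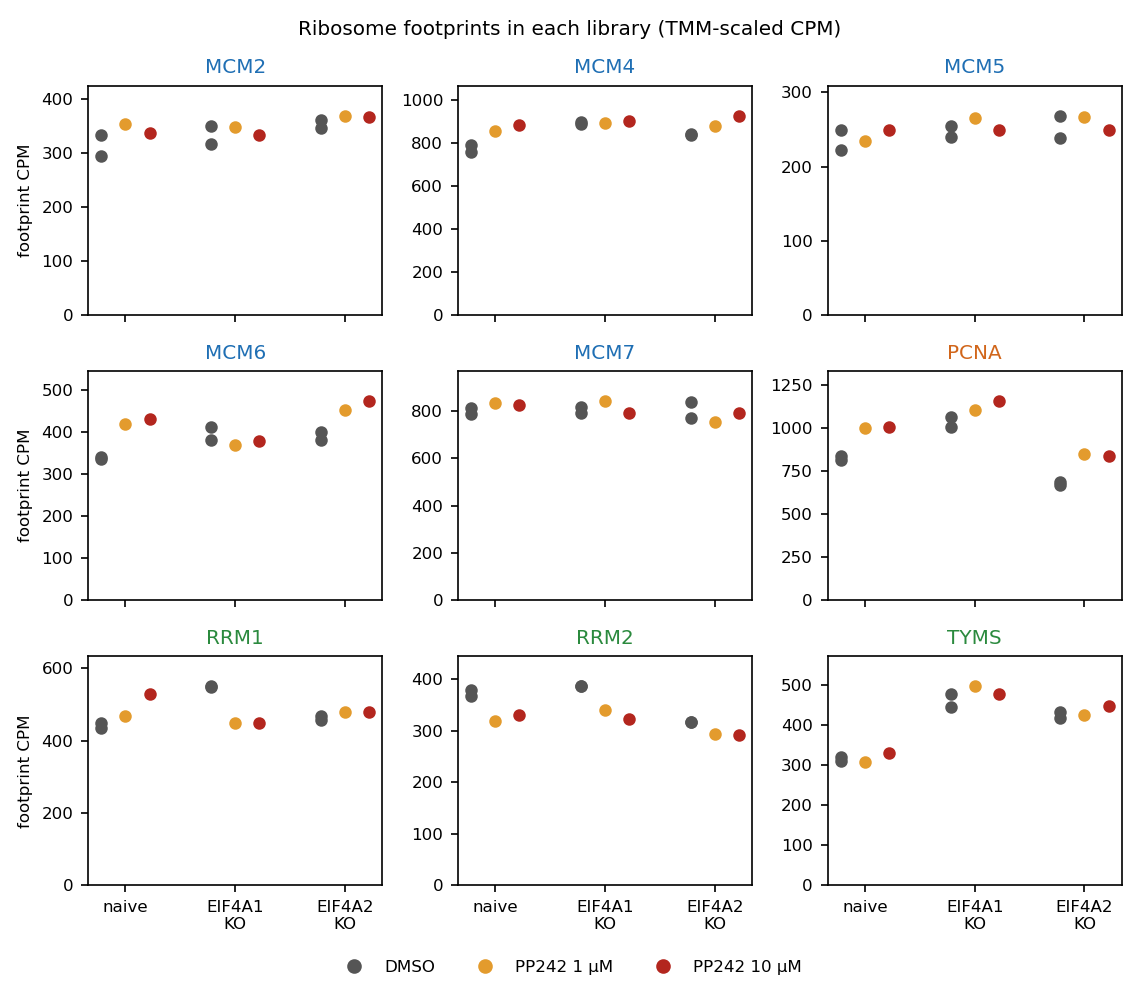
Footprint level (TMM-scaled CPM, axis from 0) of each gene in the 12 profiling libraries, by genotype and treatment, 1 point per library. PCNA runs from 668 CPM in EIF4A2 KO with DMSO to 1155 CPM in EIF4A1 KO with 10 µM PP242, and RRM1 with DMSO is highest in EIF4A1 KO at 550.1 and 549 CPM.

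After 30 min of PP242 most footprint levels of these genes moved little. Each dose had 1 library per genotype, so both doses were pooled against DMSO, 2 libraries against 2, and the doses differed from each other by a median of 0.06 and at most 0.17 on the log2 scale. In naive cells MCM6 went from 342 and 338 CPM with DMSO to 420 CPM at 1 µM and 431 CPM at 10 µM. PCNA went from 836 and 811 CPM to 999.7 and 1002 CPM, and RRM2 from 368 and 379 CPM to 319.5 and 330.4 CPM. In all 3 genes both treated libraries lay on 1 side of both DMSO libraries. Over the 9 genes, 6 lay above in this way and 1 below, so genes not called were separated as well. The share of all transcripts so separated is not given here. MCM6 rose by 0.32 (SE 0.06, adjusted p = 0.000182), PCNA rose by 0.28 (SE 0.06, adjusted p = 0.000322), and RRM2 fell by 0.20 (SE 0.07, adjusted p = 0.0343), 3 of the 9 genes beside 9.38% of all transcripts called in either direction. RRM2 lost its call when any 1 of the 4 naive libraries was left out: -0.22 and -0.18 without DMSO replicate 1 and 2, -0.23 without 10 µM and -0.18 without 1 µM. It also lost its call when only these 4 libraries were fitted (adjusted p = 0.0706).

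RRM1 in naive cells, 469 CPM at 1 µM and 528 CPM at 10 µM against 434 and 449 CPM with DMSO, was not called at 0.17 (95% interval 0.04 to 0.30), but was without the 1 µM library (0.26). MCM4 (0.17, adjusted p = 0.0616) was called with DESeq2 (adjusted p = 0.0468). TYMS, MCM5 and MCM7 had differences of 0.01, 0.03 and 0.05, and MCM2 had 0.14 (95% interval -0.000115 to 0.27). Over the 9 genes the median was 0.14, against 0.00454 over all transcripts.

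In EIF4A1 KO cells the reductase genes were the ones called with TMM scaling, both lower. RRM1 went from 550.1 and 549 CPM with DMSO to 447 CPM at each dose, and fell by 0.30 on the log2 scale (SE 0.06, adjusted p = 0.00103). RRM2 went from 387 CPM in each DMSO library to 341 CPM at 1 µM and 322.5 CPM at 10 µM, and fell by 0.22 (SE 0.07, adjusted p = 0.0274). The treated libraries lay below both DMSO libraries for each gene. The same held for MCM6, which was not called, and over the 9 genes 3 lay below and 2 above. How many of all transcripts were so separated is not given here, so these counts are not read as a response. RRM1 and RRM2 were 2 of the 9 genes, beside 3.7% of all transcripts called lower. The RRM2 call was lost without DMSO replicate 1 (-0.23), DMSO replicate 2 (-0.22) or the 10 µM library (-0.18). MCM6 had -0.09 (95% interval -0.22 to 0.05) and PCNA 0.13 (0.01 to 0.25, adjusted p = 0.201), and the other 5 genes lay between 0.01 and 0.08.

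In EIF4A2 KO cells PCNA and MCM6 were called higher, 2 of the 9 genes beside 4.58% of all transcripts. PCNA went from 688 and 668 CPM with DMSO to 848 CPM at 1 µM and 837 CPM at 10 µM, and rose by 0.31 (SE 0.06, adjusted p = 4.07e-05). MCM6 went from 382 and 400 CPM to 454 and 475 CPM, and rose by 0.25 (SE 0.06, adjusted p = 0.00317). Both treated libraries stood above both DMSO libraries for these genes. Over the 9 genes, 5 lay above in this way and 1 below, so genes not called were separated as well. The share of all transcripts so separated is not given here. MCM6 lost its call without DMSO replicate 1 (0.21) or the 10 µM library (0.21). RRM2 (-0.12, 95% interval -0.25 to 0.01) and RRM1 (0.05, -0.07 to 0.18) were not called.

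The difference between genotypes in the PP242 response was tested directly. The response in EIF4A1 KO was below that in naive cells for RRM1, by -0.47 (SE 0.09, adjusted p = 0.000244), and for MCM6, by -0.41 (SE 0.09, adjusted p = 0.00208), 2 of the 9 genes beside 2.45% of all transcripts. It was below that in EIF4A2 KO for the same genes, RRM1 by -0.35 (SE 0.09, adjusted p = 0.00843) and MCM6 by -0.34 (SE 0.09, adjusted p = 0.0138), beside 2.52% of all transcripts. These comparisons share the EIF4A1 KO libraries. The EIF4A1 KO libraries with DMSO are also those in which RRM1 and MCM6 footprints were higher than in naive cells, so these results are not independent. Between EIF4A2 KO and naive cells 0 of the 9 genes were called by edgeR, beside 0.0683% of all transcripts, with 0 at an unadjusted p under 0.05 and 0 with DESeq2. There the differences ran from -0.12 to 0.08. RRM1 starts, as annotated, with a pyrimidine run and MCM6 does not. MCM2, the other gene with a run, had -0.11 (95% interval -0.30 to 0.09) between EIF4A1 KO and naive cells. No start was at hand for MCM4 and MCM5, and a relation of the run to the response was not tested.

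The RRM1 difference kept its call in each of the fits that left out 1 library. MCM6 lost its call against naive cells without EIF4A1 KO DMSO replicate 1 (-0.35, adjusted p = 0.0522), and against EIF4A2 KO without that library (-0.28), EIF4A1 KO 1 µM (-0.32), EIF4A2 KO DMSO replicate 1 (-0.30) or EIF4A2 KO 10 µM (-0.30). Coding the dose as a score of 0, 1 and 2 ended the call of every gene here in every PP242 comparison, with RRM1 at -0.29 and MCM6 at -0.225 per step between EIF4A1 KO and naive cells. Scaling to the library total in place of TMM moved the median of all transcripts under PP242 to 0.16 in naive cells, 0.15 with EIF4A1 KO and 0.17 with EIF4A2 KO, and the falls of RRM1 (-0.16) and RRM2 (-0.08) in EIF4A1 KO and of RRM2 in naive cells (-0.04) were then not called. With that scaling 6 of the 9 genes were called higher in naive and 6 in EIF4A2 KO cells. In EIF4A1 KO cells it gave 2 genes called higher, PCNA (0.27, adjusted p = 0.000531) and TYMS (0.22, adjusted p = 0.0171), and 0 called lower, in place of 2 called lower. Of all calls in naive cells 80.6% were then upward against 39.2% with TMM. The genotype differences for RRM1 and MCM6 kept their calls under it.

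**Figure D4:**
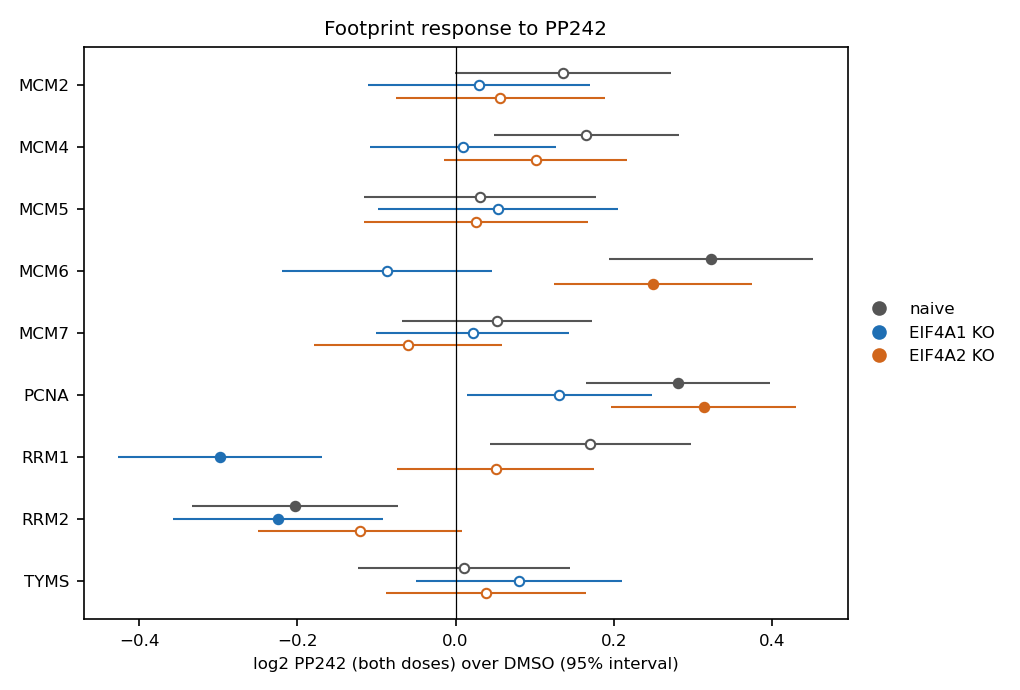
Log2 footprint change with PP242 (both doses pooled) over DMSO in the 3 genotypes (naive and both knockouts), with 95% intervals from edgeR, and filled points for an adjusted p under 0.05. RRM1 lies at -0.30 in EIF4A1 KO and at 0.17 in naive cells, and MCM6 lies at 0.32 in naive, 0.25 in EIF4A2 KO and -0.09 in EIF4A1 KO cells.

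Over the 12 profiling libraries the footprint levels of the 9 genes did not follow a common course. The Pearson correlation of log2 CPM had a median of 0.23 over the 36 pairs and 0.37 over the 10 pairs of helicase genes. The most alike pairs were MCM2 and MCM5 (r = 0.72) and MCM4 and TYMS (r = 0.70), and the least alike were MCM6 and RRM2 (r = -0.67) and MCM2 and RRM2 (r = -0.67). The 12 libraries share genotypes, treatments and scaling, so these values are descriptions.

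Capture with SBP-eIF4A1 depleted 8 of the 9 genes relative to input, beside 26.7% of all 26600 transcripts called lower. MCM6 had 122 and 138 CPM in the inputs and 51.35 and 52.1 CPM in the pulldowns, and was lower by -1.33 on the log2 scale (SE 0.07, 0.398-fold, adjusted p = 1.22e-10). RRM1 had 248 and 234 CPM against 105.5 and 104 CPM (-1.20, SE 0.06, adjusted p = 2.29e-11). MCM7 (-1.20), PCNA (-0.95), RRM2 (-0.77), MCM5 (-0.77), MCM2 (-0.72) and MCM4 (-0.69) were lower as well. For each of the 8 genes both pulldowns lay below both inputs, and the share of all transcripts so separated is not given here.

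TYMS was the exception. Its inputs held 60.3 and 60.05 CPM and its pulldowns 66.2 and 71.05 CPM, a difference of 0.19 (95% interval 0.01 to 0.37, adjusted p = 0.0623) that was not called. It was called higher when only the 4 libraries compared were fitted (0.17, adjusted p = 0.0207) or when all distinct transcripts were tested (0.20, adjusted p = 0.0406). The median over the 9 genes was -0.77 and that over all transcripts 0.04.

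With SBP-eIF4A2 all 9 genes were depleted, beside 30% of all transcripts called lower. RRM1 had 249.8 and 258 CPM in the inputs and 66.9 and 67.7 CPM in the pulldowns, the strongest depletion of the 9 at -1.92 (SE 0.06, 0.265-fold, adjusted p = 1.10e-13). PCNA had 402 and 419 CPM against 156 and 112 CPM (-1.62, SE 0.11). MCM6 followed at -1.52 and MCM7 at -1.17, RRM2 at -1.15, MCM2 at -0.95, MCM5 at -0.92 and MCM4 at -0.90. TYMS, at 79.4 and 79.9 CPM in the inputs and 70.9 and 59.4 CPM in the pulldowns, was least depleted at -0.29 (SE 0.08, adjusted p = 0.00396). Its value was -0.45 without pulldown replicate 1, -0.19 without pulldown replicate 2, and -0.10 and not called with scaling to the library total. Their median was -1.15 and that over all transcripts 0.02.

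The difference between these enrichments was called for the clamp and for all 3 nucleotide supply genes, 4 of the 9 genes beside 10.4% of all transcripts called higher with SBP-eIF4A1. Capture relative to input was higher with SBP-eIF4A1 than with SBP-eIF4A2 by 0.71 for RRM1 (SE 0.08, adjusted p = 1.54e-05), 0.67 for PCNA (SE 0.15, adjusted p = 0.00617), 0.48 for TYMS (SE 0.11, adjusted p = 0.00746) and 0.38 for RRM2 (SE 0.09, adjusted p = 0.00789). The 5 helicase genes, not called, had differences from -0.02 for MCM7 to 0.24 for MCM2, and MCM4 (0.21, adjusted p = 0.0585) and MCM2 (adjusted p = 0.0688) lay close to the threshold.

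Several of these calls rest on single libraries or on the scaling. With scaling to the library total the median of all transcripts was -0.28 against 0.03, RRM1 was still called higher (0.40), MCM7 was called lower (-0.33), and PCNA (0.36), TYMS (0.17) and RRM2 (0.07) were not called. PCNA was not called with DESeq2 (adjusted p = 0.0888), without SBP-eIF4A1 input replicate 1 (0.63) or without SBP-eIF4A1 pulldown replicate 2 (0.53). RRM2 lost its call without SBP-eIF4A1 input replicate 1 (0.38) or SBP-eIF4A2 input replicate 2 (0.34), and TYMS without SBP-eIF4A1 pulldown replicate 2 (0.43). The SBP-eIF4A2 pulldown, the group that stood apart in replicate noise, keeps 1 library when either replicate is left out. Without its replicate 2 the differences were 0.31 for MCM2, 0.20 for MCM4 and 0.24 for MCM6. Without its replicate 1 they were 0.22 for MCM4 and 0.29 for MCM5. Helicase genes gained calls in these fits, and the share of all transcripts called there is not given here.

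After control siRNA, capture with SBP-eIF4A1 depleted the clamp, the 3 nucleotide supply genes and 2 of the 5 helicase genes. Lower than input were PCNA (-2.24, SE 0.19, adjusted p = 2.53e-13), RRM1 (-2.00, SE 0.19), RRM2 (-1.25, SE 0.19), TYMS (-1.11, SE 0.20, adjusted p = 9.35e-06), MCM6 (-1.67, SE 0.19) and MCM7 (-0.47, SE 0.18, adjusted p = 0.024), 6 of the 9 genes beside 24.1% of all 26707 transcripts called lower. PCNA fell from 486 and 548 CPM in the inputs to 109 and 109.7 CPM in the pulldowns. MCM4, with 377 and 375 CPM in the inputs and 460 and 465 CPM in the pulldowns, lay higher in both pulldowns but was not called (0.30, 95% interval -0.05 to 0.65).

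MCM5 (0.08, -0.31 to 0.47) and MCM2 (-0.19, -0.56 to 0.18) were not called. The median over the 9 genes was -1.11 and that over all transcripts 0.08. MCM7 lost its call without input replicate 1 (-0.36) or pulldown replicate 2 (-0.39). With scaling to the library total the median of all transcripts was 0.55, MCM7 was at -0.00159, and MCM4 (0.77) and MCM5 (0.55) were called higher.

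**Figure D5:**
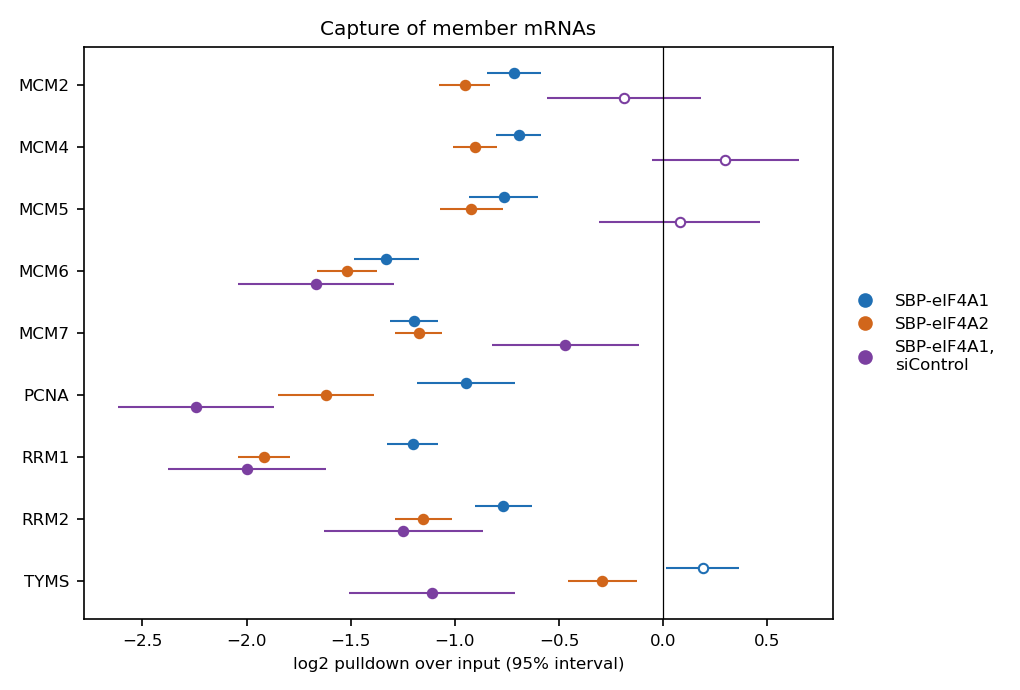
Log2 of pulldown over input for each gene, with 95% intervals from edgeR, for SBP-eIF4A1 (blue), SBP-eIF4A2 (orange) and SBP-eIF4A1 after siControl (purple), and filled points for an adjusted p under 0.05. RRM1 lies at -1.20, -1.92 and -2.00, TYMS at 0.19, -0.29 and -1.11, and MCM4 at -0.69, -0.90 and 0.30.

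The enrichment with SBP-eIF4A1 after siControl was compared with that in cells without siRNA, experiments in which siRNA and occasion cannot be told apart. It differed for 8 of the 9 genes, beside 50.2% of all 26115 transcripts called in either direction. It was higher for MCM4 (1.06, SE 0.13, adjusted p = 9.70e-06), MCM5 (0.91, SE 0.19), MCM7 (0.79, SE 0.14) and MCM2 (0.59, SE 0.15). It was lower for TYMS (-1.24, SE 0.15, adjusted p = 1.07e-05), PCNA (-1.23, SE 0.16), RRM1 (-0.73, SE 0.16) and RRM2 (-0.42, SE 0.14), and MCM6 was not called (-0.27, 95% interval -0.60 to 0.05). RRM2 lost its call without any 1 of the 4 libraries taken without siRNA (-0.39 to -0.45), and with scaling to the library total, which put the median of all transcripts at 0.63, RRM2 was at 0.11 and RRM1 (-0.20) was not called.

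Knockdown of LARP1 left the mRNA level of these genes without a call. In the inputs 0 of the 9 genes were called by edgeR between siLARP1 and siControl, beside 0.517% of all transcripts called, and 0 with DESeq2. The share of all transcripts at an unadjusted p under 0.05, a looser threshold, is not given here. At that threshold there were 3 of the 9 genes. Those 3 were MCM2 at 0.47 (95% interval 0.10 to 0.84), MCM4 at 0.45 (0.09 to 0.80) and RRM1 at -0.44 (-0.80 to -0.07). MCM2 had 185 and 165 CPM after siControl and 222 and 264 CPM after siLARP1, and MCM4 377 and 375 CPM against 495 and 530 CPM. RRM1 had 330.2 and 385 CPM after siControl and 251 and 277 CPM after siLARP1. In all 3 genes the groups did not overlap, and the same held for MCM6 and RRM2, at an unadjusted p over 0.05. How many of all transcripts were separated in this way is not given here. The siControl and siLARP1 inputs were among those with the widest spread between replicates.

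The capture with SBP-eIF4A1 after siLARP1 rests on 1 pulldown library, assumed to vary like the other groups. Relative to siControl, 0 of the 9 genes differed by edgeR, with 1 at an unadjusted p under 0.05 (MCM2, -0.68, 95% interval -1.27 to -0.09) and 0 with DESeq2, beside 0% of all transcripts called. The share of all transcripts at that unadjusted threshold is not given here. MCM4 had -0.55 (-1.11 to 0.01), and RRM1, RRM2 and MCM6 had 0.04, 0.04 and -0.01. Standard errors of the 9 genes ran from 0.28 to 0.31, and the 95% interval of MCM5, for example, reached from -0.97 to 0.26.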

How the data were processed

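The authors deposited 1 file per library with raw counts per versioned Ensembl transcript and no header. The other column the authors deposited is a length, which for the 9 genes equals protein residues minus 9 and was used as counted codons. Per the submitters' processing notes, CASAVA 1.8, STAR 2.7.0a and build hg38 were used, with no role given, and the counting tool is not given in the sources used here. Many transcripts held the same counts in every library, and these were merged (77343 distinct of 94734 transcripts with counts). Transcripts listed within 10 places of a kept one with a Pearson correlation of log2 CPM (pseudocount 0.5) of at least 0.9 were dropped, keeping the 9 genes first (35499 left). Levels named for a gene can include reads of its other transcripts.

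Counts were fitted with edgeR 4.0.16 (R 4.3.3, limma 3.58.1) by the quasi-likelihood test, two-sided, with TMM scaling, a filter on low counts (filterByExpr at 10 counts, and 15 in total) and Benjamini-Hochberg adjustment over all transcripts tested, in 7 fits giving 19 comparisons. Groups came from the sample titles. The script was tested on simulated data. All 9 genes given by the series description are named, and the genes, motifs and lists were chosen with earlier results of these data known. Alternatives were DESeq2 1.42.0 (test and size factors), library totals, no filter on low counts, all distinct transcripts, only the libraries compared, a dose score, a replicate block and leaving out each library. The labels do not say that a replicate number marks a shared culture or day, so libraries were not paired. At the lowest count of a gene here, 579, counting error is 4.16%. Other genes were not analysed here.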

Additional observations from a re-analysis of the deposited data

Results flagged for a closer look

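These values stand out because an effect measured the same way differed between groups by a test of the difference itself (edgeR's quasi-likelihood test, adjusted p under 0.05). No group had 4 or more libraries, so single libraries were not screened for outlying values. The footprint response to PP242 in EIF4A1 KO lay below that in naive cells for MCM6 (-0.41, log2) and RRM1 (-0.47), and below that in EIF4A2 KO for MCM6 (-0.34) and RRM1 (-0.35). In the first pair RRM1 fell in EIF4A1 KO and was at 0.17 in naive cells, and MCM6 rose in naive cells and was at -0.09 in EIF4A1 KO. The same EIF4A1 KO libraries with DMSO gave the higher untreated footprints of both genes.

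Capture relative to input was higher with SBP-eIF4A1 than with SBP-eIF4A2 for PCNA (0.67), RRM1 (0.71), RRM2 (0.38) and TYMS (0.48). Only RRM1 of these 4 was also called with scaling to the library total. Capture with SBP-eIF4A1 differed between siControl and no siRNA for MCM2 (0.59), MCM4 (1.06), MCM5 (0.91) and MCM7 (0.79), which were higher after siControl, and for PCNA (-1.23), RRM1 (-0.73), RRM2 (-0.42) and TYMS (-1.24), which were lower. Replicates of the siControl input and pulldown differed by a chi-square per degree of freedom of 7.13 and 13.1, against 1.45 and 1.84 in the libraries without siRNA, and the part of that spread in these differences was not tested.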

How the results depend on the processing

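Of the values for single genes recomputed under an alternative, 1932 kept their side of the threshold, 62 lost a call, 39 gained one and 1 turned. The value that turned was RRM2 in the enrichment after siControl against no siRNA, -0.42 with TMM and 0.11 with library totals. Direction was compared only where the main fit or the alternative made a call. A value called in neither counts among the 1932 even if its sign changed. Counts of the 9 genes called moved by over 1.5 times as follows. For mRNA in EIF4A1 KO, 3 became 5 without a filter on low counts, and 2 to 5 when 1 library was left out. Under a dose score all PP242 counts became 0 (from 3 in naive cells, 2 with EIF4A1 KO, 2 with EIF4A2 KO, and 2 in each of the differences of EIF4A1 KO from naive and from EIF4A2 KO). With library totals PP242 gave 6 in naive and 6 in EIF4A2 KO cells. Leaving out 1 library gave 2 to 3 in naive cells, 1 to 2 for either knockout and 1 to 2 in each of those differences. The difference of SBP-eIF4A1 and SBP-eIF4A2 capture gave 4, and 2 with library totals. Its count also moved when 1 library was left out, where the share of all transcripts called is not given here. Calls gained without moving a count that far included MCM5 mRNA in EIF4A1 KO (0.10) and MCM2 footprints in EIF4A2 KO (0.18), both with library totals. They also included PCNA (0.27) and TYMS (0.22) under PP242 in EIF4A1 KO with library totals, where RRM1 and RRM2 lost theirs. MCM4 gained one in the difference of captures without a filter (0.23), and further gains are given with their comparisons above. The causes were not tested, beyond the fewer samples that leaving out a library implies.

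The replicate numbers pair nothing by the labels. Deviations of same-numbered replicates of different groups had correlations from -0.156 to 0.101, and 0.494 for siControl input and pulldown. With a replicate block the count in EIF4A2 KO footprints went from 4 to 3, as MCM6 lost its call (adjusted p = 0.0582), and no other call of the 9 genes changed in the 12 comparisons that allowed a block. The PP242 comparisons and the siLARP1 enrichment had none. Over all transcripts, testing all distinct ones gave 2.81 to 4.48 times as many calls where any were made, and DESeq2 gave 5440 for mRNA (9391 with edgeR), 2207 for EIF4A1 KO footprints (4506) and 523 for EIF4A2 KO footprints (1595) and 2265 for the knockouts compared (4488). For PP242 it gave 1131 in naive cells (1924), 742 with EIF4A1 KO (1234) and 1460 with EIF4A2 KO (2398), and for the response differences 691 between EIF4A1 KO and naive (1244), 765 between the knockouts (1275) and 7 between EIF4A2 KO and naive (14). The dose score gave 289, 0 and 448 for PP242 in the genotypes and 2, 1 and 0 for those differences, in the same order. Library totals gave 3428 in naive and 3974 in EIF4A2 KO cells, and no filter gave 27 in the last difference. For siLARP1 inputs the count was 138, 370 with DESeq2, 211 with library totals, 409 without a filter and 25 with only the libraries compared. For the siLARP1 enrichment it was 0, and 1 without a filter. Library totals moved the upward share of calls from 39.2% to 80.6% (PP242, naive), 38.5% to 81.9% (EIF4A1 KO), 39.2% to 78.3% (EIF4A2 KO), 39.5% to 51.0% (footprints beyond mRNA), 49.8% to 61.1% (SBP-eIF4A2), 66.2% to 16.8% (difference of captures), 51.1% to 74.9% (siControl), 52.7% to 75.2% (siControl against none) and 61.6% to 97.6% (siLARP1 inputs, 51.4% with DESeq2 size factors). Standard errors were widest in the siLARP1 enrichment (0.28 to 0.31), against 0.05 to 0.07 in EIF4A1 KO footprints.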
